A study of Mus musculus with 12 samples.

Results

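Nuclear factor I (NFI) and its partners in the change from neuron to glia production were followed here as a group of 7 genes, chosen by name: the NFI genes Nfia, Nfib, Nfic and Nfix, the SOXE genes Sox9 and Sox8, and the zinc-finger gene Zbtb20. They are 7 of 55487 gene identifiers in the deposited tables, and each passed the filter on low counts that left 16798 genes to be tested. RNA came from the ventricular zone of the mouse dorsal cortex, the layer along the ventricle that holds dividing radial glia, cut out by laser microdissection. Every embryo belonged to a line with a ROSA26 knock-in in which Cre removes a loxP-flanked stop and releases p18 (the cyclin-dependent kinase inhibitor p18INK4c, encoded by Cdkn2c) joined by P2A to the fluorescent protein mKO2, and tamoxifen was injected intraperitoneally in all groups. The 12 libraries form 4 groups of 3: p18mKO2- (labelled normal) and p18mKO2+ (labelled p18mKO2 over-expression), each at embryonic day E13.5 and E16.5. No source used here names the Cre driver or the day of tamoxifen. Nothing in the labels says whether replicates are separate embryos, so each p-value reflects library-to-library spread, part of which may be technical.

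NFI proteins bind DNA as dimers of any pair of family members, to the palindrome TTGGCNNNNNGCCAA or to either of its arms (TTGGC) alone. NFIA, NFIB and NFIX drive radial glia out of self-renewal and into astrocyte differentiation, and in the cortex they are also made in postmitotic neurons. SOX9 and SOX8 belong to the same subgroup of SOX proteins. SOX9 maintains neural stem cells and primes them for glial fate, inducing Nfia and then acting with its product. ZBTB20 is a transcriptional repressor that promotes astrocyte formation and patterns the hippocampus. The study's title places p18 and other cyclin-dependent kinase inhibitors at the boundary between the neuronal and glial lineages, and these factors are known regulators of it.

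On GRCm38, Nfia (ENSMUSG00000028565) lies at chr4:97772734-98118874 on the plus strand and Nfib (ENSMUSG00000008575) at chr4:82290173-82705750 on the minus strand. Nfic (ENSMUSG00000055053) lies at chr10:81396186-81455635 and Nfix (ENSMUSG00000001911) at chr8:84699876-84800344, both on the minus strand. Sox9 (ENSMUSG00000000567) lies at chr11:112782224-112787760 on the plus strand and Sox8 (ENSMUSG00000024176) at chr17:25565892-25570686 on the minus strand. Zbtb20 (ENSMUSG00000022708) spans chr16:42875881-43642602 on the plus strand. The files list 1 transcript for Sox9, 3 for Sox8, 7 for Nfic, 8 each for Nfia and Nfix, 12 for Nfib and 21 for Zbtb20. Genes on the opposite strand overlap 6 of the 7 members, all but Sox9. The most abundant of these were E130114P18Rik within Nfia, at a mean of 51.6 CPM (counts scaled to library size, here after TMM normalization), and Gm11266 within Nfib, at 38.6 CPM. The kit keeps strand, but no source used here says whether the counting used it, so reads of such pairs may not be separated.

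For Nfix and Zbtb20, which rose with stage in the p18mKO2- libraries, 1 promoter each is printed. Beside them stands 1 each of Nfic and Sox8, which were not called, so that the NFI arms of these windows can be compared. Of the 7 genes, 5 had an entry among RefSeq promoters of GRCm38.p6 (250 bases before to 50 after a transcription start), with 8 promoters between them. The 4 printed are those whose start lies within 14 bases of an annotated transcript start. They are Nfix at chr8:84773361-84773660 (minus strand), Zbtb20 at chr16:43247034-43247333 (plus strand), Nfic at chr10:81427124-81427423 (minus strand) and Sox8 at chr17:25570637-25570936 (minus strand), written 5′ to 3′ with NFI arms (TTGGC, or GCCAA on the other strand) in capitals.
Nfix: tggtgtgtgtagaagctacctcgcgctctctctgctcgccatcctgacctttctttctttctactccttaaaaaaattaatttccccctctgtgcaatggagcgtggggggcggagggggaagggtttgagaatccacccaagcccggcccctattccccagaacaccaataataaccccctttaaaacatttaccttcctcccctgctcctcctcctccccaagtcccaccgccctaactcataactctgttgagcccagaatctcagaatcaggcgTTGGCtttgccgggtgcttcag
Zbtb20: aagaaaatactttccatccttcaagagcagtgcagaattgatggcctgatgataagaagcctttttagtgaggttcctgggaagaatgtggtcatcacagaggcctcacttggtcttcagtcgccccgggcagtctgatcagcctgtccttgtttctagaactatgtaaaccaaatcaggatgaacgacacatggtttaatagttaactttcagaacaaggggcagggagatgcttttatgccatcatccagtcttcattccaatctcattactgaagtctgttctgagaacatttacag
Nfic: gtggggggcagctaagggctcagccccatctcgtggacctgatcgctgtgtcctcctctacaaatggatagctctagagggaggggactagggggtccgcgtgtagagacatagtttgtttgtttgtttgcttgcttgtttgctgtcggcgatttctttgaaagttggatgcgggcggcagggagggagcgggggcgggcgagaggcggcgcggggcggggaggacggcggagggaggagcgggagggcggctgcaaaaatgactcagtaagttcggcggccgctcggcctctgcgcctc
Sox8: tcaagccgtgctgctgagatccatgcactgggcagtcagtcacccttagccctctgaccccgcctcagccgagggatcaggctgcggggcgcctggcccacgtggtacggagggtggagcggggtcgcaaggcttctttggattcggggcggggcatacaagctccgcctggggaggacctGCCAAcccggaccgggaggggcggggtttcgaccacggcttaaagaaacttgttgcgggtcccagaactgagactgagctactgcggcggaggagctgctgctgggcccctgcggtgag
The printed Nfix promoter holds 1 NFI arm, 28 bases after the start, and the Sox8 promoter holds 1, 69 bases before it. The Nfic and Zbtb20 windows hold none. Only the Sox8 window lies at the annotated start of its gene. The starts printed for Nfix, Nfic and Zbtb20 lie 26934, 28462 and 371403 bases inside theirs. They are internal starts, and which starts were used in this tissue was not tested. Over all 8 member promoters, 4 contained an NFI arm, against 46.7% of 32851 RefSeq mouse promoters of the same length. None of the 8 contained the full palindrome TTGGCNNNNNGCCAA, which is in 0.0365% of all promoters. The SOX core ACAATG (or CATTGT) was in 2 of the 8 and in 12.6% of all promoters, and in none of the 4 printed windows. A match is only a stretch of letters, and windows without one say nothing about binding elsewhere.

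The total estimated count per library lay between 17101971 and 21837088. Cdkn2c itself was not called in p18mKO2+ against p18mKO2-, with a log2 difference of 0.14 ± 0.26 (SE; edgeR, adjusted p = 0.798) at E13.5 and 0.32 ± 0.26 (edgeR, adjusted p = 1) at E16.5, so Cdkn2c counts do not separate the labelled groups. No source used here says whether reads of the transgene are counted there. Replicate 3 of E13.5 p18mKO2+ and replicate 3 of E16.5 p18mKO2+ each held Xist and Y-linked transcripts together, which the other 10 libraries did not, and calls that changed without them, with several values that moved, are given both ways. All E13.5 p18mKO2- libraries held Xist and next to no Y-linked transcripts, all E16.5 p18mKO2+ libraries held Y-linked transcripts, and the other groups were mixed. The ribosomal RNA level was 52440.0 to 87990.0 CPM in E13.5 p18mKO2-, 26190.0 to 65840.0 in E13.5 p18mKO2+, 70620.0 to 152000.0 in E16.5 p18mKO2- and 16650.0 to 39640.0 in E16.5 p18mKO2+. Its E16.5 groups did not overlap, and with it as a covariate the E16.5 p18 difference became 0.32 for Nfib and 0.81 for Nfix, neither called. Markers set the tissue label beside its neighbours. The summed CPM of 7 radial glial genes was 2296 to 2627 in E13.5 p18mKO2-, 1466 to 2041 in E13.5 p18mKO2+ and 1283 to 1776 at E16.5. With stage in p18mKO2- tissue 5 of these radial glial genes fell and 1 rose, beside 29.8% of all genes called. The 1 that rose was Slc1a3 (log2 change 0.69 ± 0.17), and Fabp7, at 0.40 ± 0.22, was not called. The sum of 7 neuronal genes (Dcx, Tubb3, Neurod2, Neurod6, Mapt, Stmn2, Tbr1) ran from 1610.0 to 2142 in E13.5 p18mKO2-, 4060.0 to 4559 in E13.5 p18mKO2+, 5997 to 8274 in E16.5 p18mKO2- and 5681 to 6679 in E16.5 p18mKO2+. Neuronal transcripts were thus abundant in tissue labelled as ventricular zone. All 7 rose with stage in p18mKO2- and 5 rose with p18 at E13.5. In bulk tissue, fewer cells of a type and less RNA per cell cannot be told apart.

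Levels of different genes were compared in TPM, the deposited unit that divides by transcript length. In E13.5 p18mKO2- tissue Nfib was the most abundant member at 204 ± 20.8 TPM (SD, n = 3, as for all group means here), followed by Nfix at 143 ± 30.5 and Nfia at 115 ± 5.20 TPM. The libraries' ranges of Nfix and Nfia overlapped, while Nfib stood above both in every library. Sox9 came next at 49.2 ± 11.2 TPM, and Nfic at 15.3 ± 1.73, Sox8 at 14.6 ± 2.51 and Zbtb20 at 11.7 ± 2.69 TPM could not be ordered. At E16.5 in p18mKO2- tissue Nfix, at 389 ± 174 TPM, and Nfib, at 383 ± 58.4 TPM, overlapped at the top, and Nfia followed at 96.5 ± 18.7 TPM. Sox9 had dropped to 17.8 ± 6.05 TPM, within the ranges of Nfic, Zbtb20 and Sox8, at 17.7 ± 11.1, 17.5 ± 6.67 and 15.4 ± 2.67 TPM. The p18mKO2+ groups had the same leading trio, with Nfib at 331 ± 103, Nfix at 249 ± 101 and Nfia at 129 ± 43.4 TPM at E13.5, and Nfix at 393 ± 59.1, Nfib at 389 ± 14.5 and Nfia at 110 ± 8.09 TPM at E16.5.

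**Figure D1:**
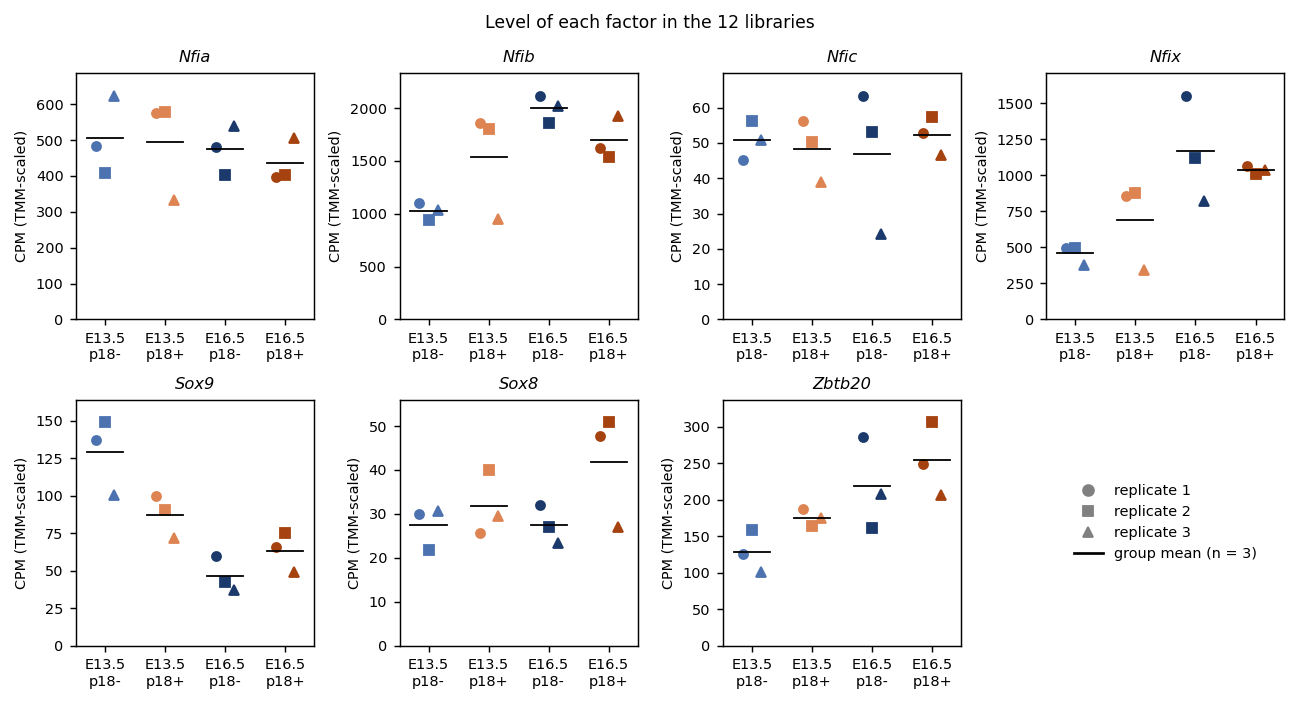
CPM (TMM-scaled, linear axes from 0) of the 7 factors in each library, by stage and p18 label. Circles, squares and triangles are replicates 1, 2 and 3 and black lines are means of 3 libraries. Nfib and Nfix at E13.5 p18mKO2+ are at 1859 and 1806 CPM (Nfib) and 860 and 877 CPM (Nfix) in replicates 1 and 2, and lower, at 951 and 343 CPM, in replicate 3.

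The first comparison asked how the factors change between E13.5 and E16.5 in tissue labelled normal. Nfib, Nfix and Zbtb20 rose and Sox9 fell, while Nfia, Nfic and Sox8 were not called. That is 4 of 7 members called, against 29.8% of all genes tested (edgeR quasi-likelihood test, Benjamini-Hochberg adjusted p under 0.05 over 16798 genes). CPM ranges of the groups did not overlap for the same 4 members, against 40.4% of all genes. The members' median log2 change was 0.0, beside -0.02 for all genes tested.

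Nfib stood at 1101, 938 and 1038 CPM at E13.5 and at 2119, 1862 and 2018 CPM at E16.5 in p18mKO2- replicates 1, 2 and 3. Every E16.5 library lay above every E13.5 library. The log2 change was 0.96 ± 0.21 (SE; 1.95-fold, edgeR adjusted p = 0.00358), and over all alternative settings the adjusted p lay between 2.09e-05 and 0.019. Nfix stood at 499, 498 and 379 CPM at E13.5 and at 1553, 1122 and 822 CPM at E16.5. Its groups did not overlap either, though the E16.5 libraries spread widely around a mean of 1166 ± 367 CPM. The log2 change was 1.35 ± 0.30 (2.54-fold, edgeR adjusted p = 0.00407, and 9.8e-09 to 0.0212 over the alternatives).

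Sox9 showed the largest change of the 7 in size. It read 138, 149 and 101 CPM at E13.5 and 59.8, 42.7 and 37.0 CPM at E16.5 in the p18mKO2- libraries, so that its lowest E13.5 library exceeded its highest E16.5 library. The log2 change was -1.47 ± 0.22, a fold of 0.360 (edgeR adjusted p = 0.000194, and 1.02e-11 to 0.00265 over the alternatives). Sox8, which belongs to the same SOXE group, was present at lower levels and did not follow Sox9. Its values were 30.0, 21.7 and 30.6 CPM at E13.5 and 32.0, 27.0 and 23.4 CPM at E16.5, a log2 difference of 0.0 ± 0.25 (edgeR adjusted p = 0.999). With that SE, a Sox8 change well above 0.25 in either direction could also have been missed. In the same comparison Sox6, with a like SE, was not called at -0.74 ± 0.27 (edgeR adjusted p = 0.0574).

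Zbtb20 read 126, 159 and 101 CPM at E13.5 and 286, 161 and 208 CPM at E16.5 in p18mKO2-. The groups did not overlap, but replicate 2 of each stage nearly met, at 159 and 161 CPM. The log2 change was 0.76 ± 0.21 (1.70-fold, edgeR adjusted p = 0.0153). This call was the least stable of the 4: the adjusted p was 0.064 without E13.5 p18mKO2- replicate 3, 0.0773 without E16.5 p18mKO2- replicate 1, and 0.229 in limma on log2(TPM + 1), where the change was 0.51 ± 0.28. In TPM the Zbtb20 groups overlapped, at 9.33, 14.6 and 11.04 TPM against 25.2, 13.4 and 13.9 TPM. The deposited mean transcript length of Zbtb20 ranged from 13330 bases in E13.5 p18mKO2- replicate 3 to 24297 bases in E13.5 p18mKO2+ replicate 1, while that of Sox9, with its single transcript, was 4135 bases in every library.

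Nfia, the family member that SOX9 is known to induce, read 484, 408 and 624 CPM at E13.5 and 480, 403 and 540 CPM at E16.5 in p18mKO2-. The stages overlapped almost fully, with a log2 difference of -0.09 ± 0.22 (edgeR adjusted p = 0.796). Nfic, the member not usually tied to gliogenesis, read 45.2, 56.2 and 50.8 CPM at E13.5 and 63.4, 53.1 and 24.3 CPM at E16.5. Its difference was -0.11 ± 0.27 on the log2 scale (edgeR adjusted p = 0.792), and E16.5 replicate 3 was the lowest library for this gene in the series.

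**Figure D2:**
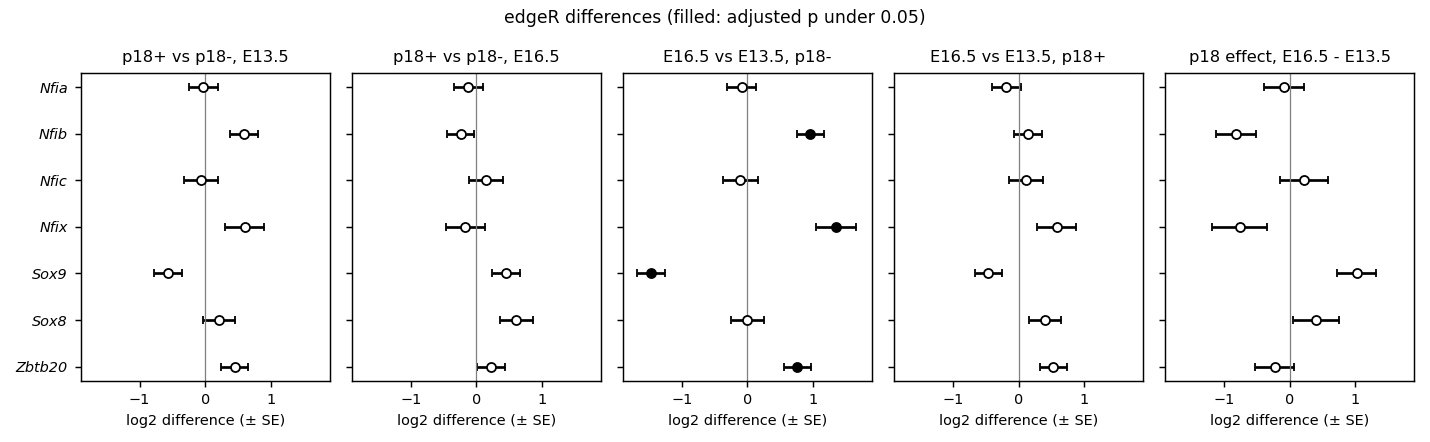
Log2 differences of the 7 factors in 5 comparisons (edgeR, bars are 1 SE on each side), with filled points where the adjusted p was under 0.05. The filled points are those of Nfib, Nfix, Sox9 and Zbtb20 between stages in p18mKO2- tissue.

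Between the same stages in p18mKO2+ tissue no member was called, against 1.64% of all genes. CPM groups did not overlap for 2 of the 7, Nfix and Zbtb20, against 26.6% of all genes. The unadjusted p was under 0.05 for 2, Sox9 and Zbtb20, against 2486 of all 16798 genes. The median log2 change of the members was 0.14, beside -0.03 for all genes. DESeq2 and limma-voom also called none. Nfix read 860, 877 and 343 CPM at E13.5 and 1066, 1010 and 1037 CPM at E16.5, with every E16.5 library above every E13.5 library and a log2 difference of 0.58 ± 0.30 (edgeR adjusted p = 0.397), or 0.29 ± 0.23 without E13.5 p18mKO2+ replicate 3. Zbtb20 read 187, 164 and 175 CPM at E13.5 and 248, 306 and 206 CPM at E16.5. These groups were also apart in CPM but overlapped in TPM, with a log2 difference of 0.53 ± 0.21 (edgeR adjusted p = 0.254). Nfib, by contrast, overlapped in CPM. It read 1859, 1806 and 951 CPM at E13.5 and 1620, 1540 and 1924 CPM at E16.5. Its log2 difference of 0.14 ± 0.21 (edgeR adjusted p = 0.845) became -0.09 without E13.5 p18mKO2+ replicate 3. Sox9 read 99.8, 90.3 and 71.7 CPM at E13.5 and 66.0, 74.9 and 49.5 CPM at E16.5, a log2 difference of -0.46 ± 0.21 (edgeR adjusted p = 0.336). Its groups overlapped through 1 pair, E16.5 replicate 2 lying above E13.5 replicate 3. The remaining differences were -0.19 ± 0.22 for Nfia, 0.11 ± 0.26 for Nfic and 0.40 ± 0.24 for Sox8. Without E16.5 p18mKO2+ replicate 3 they were -0.27, 0.23 and 0.67, and that of Sox9 was -0.27, none of them called. Without E13.5 p18mKO2+ replicate 3 Nfia differed by -0.38.

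The p18 label was compared next at E13.5. No member was called in p18mKO2+ against p18mKO2-, while 10.8% of all genes were. CPM groups did not overlap for 2 members, Sox9 and Zbtb20, against 30.7% of all genes. The unadjusted p was under 0.05 for 2 members, Nfib and Sox9, against 4271 of all 16798 genes. DESeq2 called 1, Nfib, and limma-voom called none. The members' median log2 difference was 0.21, beside 0.01 for all genes tested.

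In that comparison the calls of Nfib and Nfix changed with 1 library, E13.5 p18mKO2+ replicate 3. Against the p18mKO2- values given above, Nfib was at 1859 and 1806 CPM in replicates 1 and 2 but at 951 CPM in replicate 3. The log2 difference was 0.59 ± 0.21 with all libraries (edgeR adjusted p = 0.0948), and Nfib was called higher at 0.84 ± 0.15 without that library (edgeR adjusted p = 0.00528). Nfix behaved alike, at 860 and 877 CPM in replicates 1 and 2 and 343 CPM in replicate 3, the lowest Nfix value in the series. Its log2 difference was 0.60 ± 0.30 (edgeR adjusted p = 0.233), and it was called higher at 0.92 ± 0.22 without replicate 3 (edgeR adjusted p = 0.0285). Nfia was also lowest in that library, at 334 CPM beside 574 and 577 CPM in the other two. Its p18 difference was -0.03 ± 0.22 with replicate 3 and 0.19 without it (edgeR adjusted p = 0.959 with it). Without both libraries that hold transcripts of both sexes, 2 of the 7 members, Nfib and Nfix, were called higher. Among all genes 796 were called without those libraries and 933 without E13.5 p18mKO2+ replicate 3 alone, against 1810.0 with all libraries. The neuronal sum was 4559 CPM in replicate 3 beside 4190.0 and 4060.0 CPM in replicates 1 and 2. Other marker sums stood apart there: intermediate progenitor genes at 348.7 CPM beside 582.7 and 687.6, radial glial genes at 1466 beside 1942 and 2041, and cycling genes at 1169 beside 1437 and 1562. Ventral telencephalon and interneuron genes summed to 651.6 CPM in replicate 3 beside 458.8 and 465.8, and choroid plexus and hem genes to 23.39 beside 345.2 and 635.3. Astrocyte genes summed to 178.4 CPM in replicate 3 beside 116.7 and 71.03, and hippocampal primordium genes to 179.0 beside 105.8 and 63.4. The astrocyte sum did not hold for each of its genes. Aldh1l1 was lower in replicate 3, at 10.88 CPM, than in replicates 1 and 2. Gfap was higher there but scarce, at 0.3414 CPM beside 0.1454 and 0.09142. The part of these markers in the low Nfib, Nfix and Nfia of replicate 3 was not tested.

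**Figure D3:**
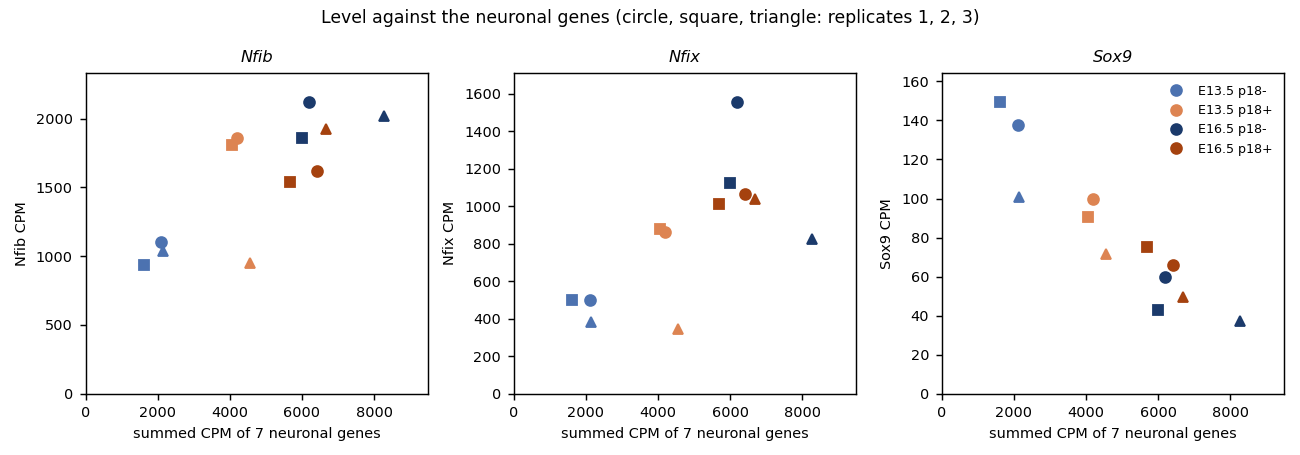
CPM of Nfib, Nfix and Sox9 against the summed CPM of the 7 neuronal genes in the 12 libraries, with colours for the 4 groups and shapes for replicates 1 to 3. E13.5 p18mKO2+ replicate 3 (light orange triangle) holds 951 CPM of Nfib and 343 CPM of Nfix at a neuronal sum of 4559 CPM. Sox9 is at 74.9 CPM or less in the 6 E16.5 libraries, whose neuronal sums start at 5681 CPM.

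Sox9 read 99.8, 90.3 and 71.7 CPM in E13.5 p18mKO2+ against 138, 149 and 101 CPM in p18mKO2-. All p18mKO2+ libraries lay below all p18mKO2- libraries, with the nearest pair at 99.8 and 101 CPM. The log2 difference was -0.57 ± 0.21 (edgeR adjusted p = 0.109, and 0.0143 to 0.469 over the alternatives), so Sox9 did not pass the threshold. In TPM its groups overlapped. Zbtb20 read 187, 164 and 175 CPM in p18mKO2+ against 126, 159 and 101 CPM. Its groups were apart in CPM and overlapped in TPM, with a log2 difference of 0.45 ± 0.21 (edgeR adjusted p = 0.209). Sox8 read 25.6, 40.1 and 29.5 CPM in p18mKO2+, overlapping p18mKO2-, with a log2 difference of 0.21 ± 0.25 (edgeR adjusted p = 0.657). Its TPM groups did not overlap, at 16.9, 23.0 and 22.2 TPM against 16.4, 11.7 and 15.6 TPM. Nfic read 56.3, 50.1 and 38.8 CPM and differed by -0.07 ± 0.26. Of the 7 neuronal markers 5 rose in the same comparison, and 4 without E13.5 p18mKO2+ replicate 3, while 3 of 5 cycling genes and 3 of 7 radial glial genes fell, with median log2 differences of -0.79 and -0.59. Of 6 ventral telencephalon and interneuron genes 1 rose and 5 had an unadjusted p under 0.05, against 4271 of all 16798 genes at that p. Their median was 0.96, and their summed CPM was 135.7 to 380.0 in p18mKO2- and 458.8 to 651.6 in p18mKO2+. The part of these markers in the values of Nfib, Nfix, Sox9 and Zbtb20 was not tested.

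At E16.5 the p18 label separated no member, and edgeR called none of the 16798 genes (0.0%), with 426 at an unadjusted p under 0.05. DESeq2 called 16 genes and limma-voom 2 over the whole table. CPM groups overlapped for all 7 members, while they did not overlap for 7.95% of all genes. The unadjusted p was under 0.05 for 1 member, Sox8, and DESeq2 and limma-voom called none of the 7. The members' median log2 difference was 0.15, beside -0.01 over all genes. Sox8 read 47.7, 50.9 and 27.0 CPM in p18mKO2+ against 32.0, 27.0 and 23.4 CPM in p18mKO2-. Replicates 1 and 2 of p18mKO2+ held the highest Sox8 values of the series and replicate 3 fell within p18mKO2-, for a log2 difference of 0.61 ± 0.25 (edgeR adjusted p = 1). Sox9 read 66.0, 74.9 and 49.5 CPM against 59.8, 42.7 and 37.0 CPM, with 2 of 3 p18mKO2+ libraries above all p18mKO2- libraries and a log2 difference of 0.45 ± 0.21 (edgeR adjusted p = 1). Nfib read 1620, 1540 and 1924 CPM against 2119, 1862 and 2018 CPM, a log2 difference of -0.24 ± 0.21. Nfix overlapped at 1066, 1010 and 1037 CPM against 1553, 1122 and 822 CPM, and the difference of -0.17 ± 0.30 was 0.11 at its highest when single libraries were left out. Nfia differed by -0.12 ± 0.22, Nfic by 0.15 ± 0.26 and Zbtb20 by 0.22 ± 0.21, a value that ran from 0.04 to 0.48 with single libraries left out. Without the libraries that hold transcripts of both sexes the difference was 0.36 for Zbtb20, 0.61 for Sox9 and 0.86 for Sox8, none of them called. All 6 ventral telencephalon and interneuron genes had an unadjusted p under 0.05 in this comparison and none was called, with a median of 1.2 and sums of 144.1 to 227.3 CPM in p18mKO2- and 319.3 to 487.3 in p18mKO2+. Their part in the members' values was not tested.

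Whether the p18 effect differed between the stages was tested by the interaction, the E16.5 effect minus the E13.5 effect, which is also the stage change in p18mKO2+ minus that in p18mKO2-. None of the 7 members was called by edgeR, against 2.7% of all genes. The unadjusted p was under 0.05 for 2, Nfib and Sox9, against 2749 of all 16798 genes. DESeq2 called 1, Sox9, and limma-voom none, and the median was -0.09 beside -0.03 for all genes. Sox9 came nearest, with a difference of 1.02 ± 0.30 on the log2 scale (edgeR adjusted p = 0.0948). It was lower in p18mKO2+ at E13.5 and higher at E16.5 by point estimate, and the adjusted p was 0.0409 without E16.5 p18mKO2- replicate 1 and 0.0259 in DESeq2. Nfib differed by -0.82 ± 0.30 (edgeR adjusted p = 0.174), and by -1.07 ± 0.20 without E13.5 p18mKO2+ replicate 3 (edgeR adjusted p = 0.0164). Nfix differed by -0.76 ± 0.42 (edgeR adjusted p = 0.402), and its adjusted p was never below 0.1 over the alternatives. Sox8 at 0.40 ± 0.35, Nfic at 0.22 ± 0.37, Zbtb20 at -0.23 ± 0.30 and Nfia at -0.09 ± 0.31 were not called.

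Because NFI proteins pair with one another, the make-up of the NFI transcript pool was described, with no test, as each gene's share of the summed TPM of the 4 NFI genes. The sum was 477 ± 18.6 TPM in E13.5 p18mKO2-, 726 ± 249 in E13.5 p18mKO2+, 886 ± 258 in E16.5 p18mKO2- and 913 ± 66.4 TPM in E16.5 p18mKO2+. Nfia made up 22.1%, 24.8% and 25.9% of it in E13.5 p18mKO2-, 18.3%, 16.9% and 18.4% in E13.5 p18mKO2+, 10.3%, 10.3% and 12.9% in E16.5 p18mKO2-, and 11.3%, 11.1% and 13.8% in E16.5 p18mKO2+. The E13.5 p18mKO2+ share thus lay between those of E13.5 p18mKO2- and of the E16.5 groups with no overlap on either side, and replicate 3, low in total at 442 TPM, shared it. Nfix went the other way, from a mean share of 29.8% in E13.5 p18mKO2- and 33.7% in E13.5 p18mKO2+ to 42.4% and 42.9% in the E16.5 groups. Its E13.5 p18mKO2+ range, 30.12% to 35.74%, overlapped those of E13.5 p18mKO2- (23.25% to 33.59%) and E16.5 p18mKO2- (33.59% to 48.88%). Each share depends on the other genes of the sum, and Nfia itself was not called in any comparison. Nfib held its share, with means of 42.7%, 46.1%, 44.5% and 42.6% in the same order of groups. The ratio of Nfix to Nfia TPM was 1.24 ± 0.307 in E13.5 p18mKO2-, 1.89 ± 0.24 in E13.5 p18mKO2+, 3.90 ± 1.14 in E16.5 p18mKO2- and 3.60 ± 0.70 in E16.5 p18mKO2+. For the SOXE members Sox9 and Sox8 the ratio of Sox9 to Sox8 TPM was 3.505 ± 1.295 in E13.5 p18mKO2- and 1.86 ± 0.575, 1.14 ± 0.194 and 1.081 ± 0.194 in the other groups in that order. Sox9 transcripts outnumbered those of Sox8 in E13.5 libraries of both labels, and at E16.5 the pair was near parity.

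**Figure D4:**
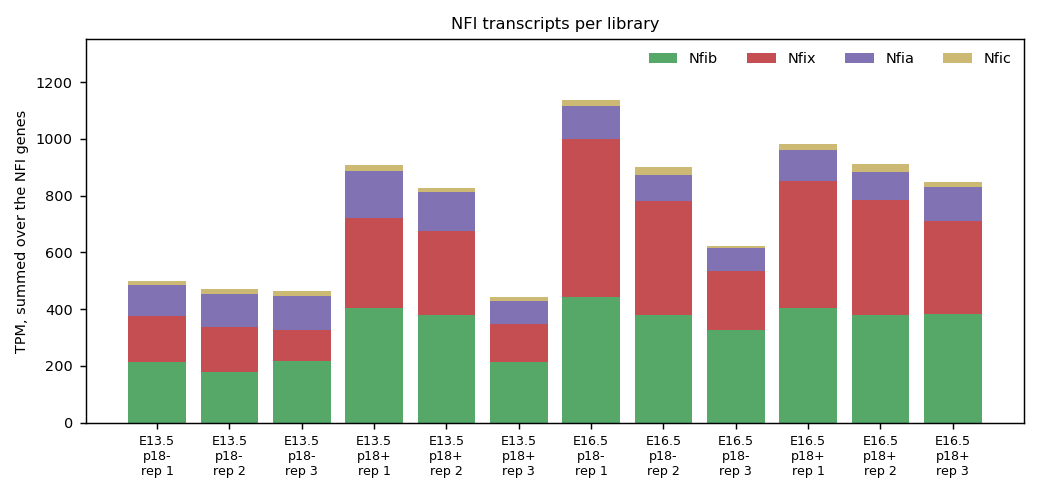
Summed TPM of the 4 NFI genes in each library, stacked by gene (bars start at 0, 1 bar per library). The sum is between 442 and 498 TPM in all E13.5 p18mKO2- libraries and in E13.5 p18mKO2+ replicate 3, and at least 621 TPM in the other 8 libraries.

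Known targets of the factors were read in the same comparisons. Of 13 listed targets of NFI, SOX9 or ZBTB20, 12 were tested (Insc was filtered), and in p18mKO2- tissue 4 rose and 2 fell from E13.5 to E16.5, beside 29.8% of all genes called, with a median log2 change of 0.48 beside -0.02 for all genes. Those that rose were Pou3f2, a neuronal POU factor repressed by ZBTB20 (2.83 ± 0.20, edgeR adjusted p = 5.91e-07), Aldh1l1, an astrocyte folate enzyme (2.34 ± 0.23), Slc1a3, the glial glutamate transporter (0.69 ± 0.17), and Gfap, the astrocyte filament gene. Gfap had no counts in the 3 E13.5 p18mKO2- libraries and 50 in all in E16.5 p18mKO2-, at least 17.3-fold higher by a floor of 3 counts over the group. Its level remained low, at 0.949 CPM. Among other astrocyte markers the gap junction gene Gja1 changed by -1.99 ± 0.26 (edgeR adjusted p = 8.20e-05) and the glutamate transporter gene Slc1a2 by -0.83 ± 0.54, which was not called. The summed CPM of 6 astrocyte markers was 121.2 to 181.6 in E13.5 p18mKO2- and 62.56 to 80.12 in E16.5 p18mKO2-. Hes1, a Notch effector repressed by NFI proteins, fell by 1.86 (SE 0.29) and Ezh2, the Polycomb methyltransferase that NFIB represses, fell by 0.58 (SE 0.14) on the log2 scale. Because the list holds repressed targets (Hes1, Ezh2, Pou3f2) beside others, its counts and median are not read as a single effect. Zbtb20 rose in the same comparison as Pou3f2, and its part in the Pou3f2 change was not tested. The radial glial lipid carrier Fabp7 (0.40 ± 0.22) and the NFIA targets Apcdd1 (-0.35 ± 0.20), Mmd2 (0.56 ± 0.28) and Zcchc24 (0.41 ± 0.28) were not called. In p18mKO2+ tissue 3 targets rose between stages and none fell, beside 1.64% of all genes called. They were Pou3f2 (1.38 ± 0.19), Aldh1l1 (1.15 ± 0.22) and Gfap, from 0.193 to 2.42 CPM. The count of targets that rose was 1 without E16.5 p18mKO2+ replicate 1 or replicate 3.

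Regulators that act upstream of the gliogenic factors or against them mostly fell with stage: 11 of 14 fell and 1 rose in p18mKO2- tissue, with a median log2 change of -1.03. Among all genes, for this and the next lists, 29.8% were called, 2760 rising and 2245 falling, with a median of -0.02. The list mixes upstream with opposed genes, so its direction is not read as a single effect. Nor are the lists separate sets: Ezh2 is also a listed target, so its fall is counted in both. Pax6, Hes5 and Neurog2 of this list, and the targets Slc1a3 and Fabp7, are also among the progenitor markers. The Notch effector Hes5 changed by -2.48 ± 0.23, the proneural gene Neurog1 by -2.83 ± 0.45 and the cortical patterning gene Emx2 by -1.56 ± 0.16, while Zeb2, a SMAD-binding repressor, rose by 2.02 ± 0.20 (edgeR adjusted p between 6.42e-06 and 0.000338). In p18mKO2+ tissue only Hes5 was called, at -1.16 ± 0.22, beside 1.64% of all genes. No gene of the list was called without E16.5 p18mKO2+ replicate 1 or replicate 2. Of 9 other SOX genes 4 rose and 4 fell with stage in p18mKO2-, with a median of -0.59. The progenitor genes Sox2 (-1.26 ± 0.14) and Sox3 (-2.34 ± 0.29) fell as Sox9 did, and Sox4 (1.19 ± 0.13) and Sox11 (1.22 ± 0.14), which act in young neurons, rose. Sox10, a SOXE gene like Sox9 and Sox8, also rose, by 3.18 ± 1.01 (edgeR adjusted p = 0.0282). Its level was low, at 0.201 CPM in E13.5 p18mKO2- and 1.88 CPM in E16.5 p18mKO2-. None of the 9 was called in p18mKO2+ in edgeR. Of 11 further glial factors 4 rose and 1 fell in p18mKO2-, with a median of 0.65: Olig1, of the oligodendrocyte lineage (3.18 ± 0.35), the ETS factors Etv5 (2.17 ± 0.19) and Etv4 (2.05 ± 0.39) and the repressor Zbtb18 (1.67 ± 0.22) rose, and Id4, an inhibitor of bHLH factors (-2.67 ± 0.15), fell. In p18mKO2+ Olig1 rose by 1.63 ± 0.31 and Id4 changed by -1.19 ± 0.14, and the Olig1 call was lost when E13.5 p18mKO2+ replicate 2 was left out, or either replicate 1 or 3 of E16.5 p18mKO2+. In DESeq2 the p18mKO2+ stage counts were higher: 3 SOX genes rose and 1 fell, 4 glial factors rose and 1 fell, and 1 regulator rose and 3 fell. With no filter on low counts 1 SOX gene rose and 1 fell, and the counts of the other two lists were those of DESeq2, while limma on log2(TPM + 1) called 1 SOX gene, which rose. When E13.5 p18mKO2+ replicate 3 was left out, 2 regulators and 1 SOX gene fell in p18mKO2+. Leaving out replicate 3 of E16.5 p18mKO2- gave the same counts and 1 regulator that rose, and leaving out replicate 1 of that group gave 2 regulators that fell. The 7 neuronal markers all rose with stage in p18mKO2-, and their part in these counts was not tested.

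**Figure D5:**
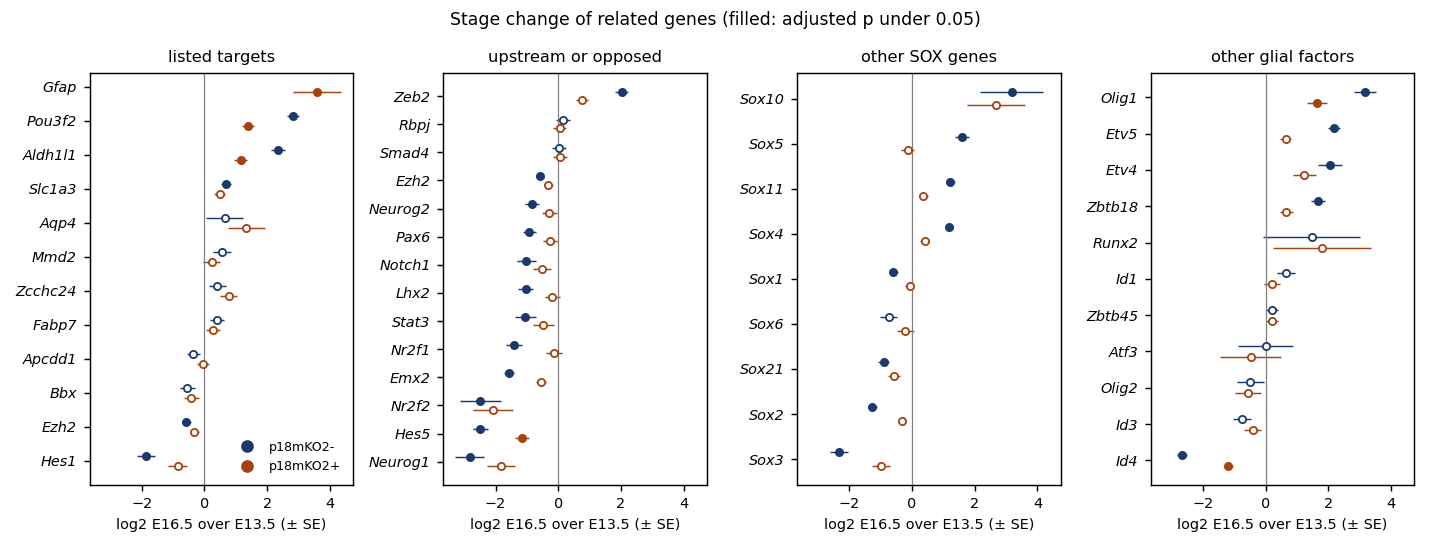
Log2 stage change (E16.5 over E13.5, edgeR, bars are 1 SE on each side) of genes related to the 7 factors, in p18mKO2- (blue) and p18mKO2+ (orange) tissue, filled where the adjusted p was under 0.05. Gfap is shown for p18mKO2+ alone, since it had no counts in E13.5 p18mKO2-, and 11 of 14 upstream or opposed regulators fell in p18mKO2-.

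With the p18 label at E13.5, 3 of the 12 targets rose and 1 fell, with a median log2 difference of -0.02. Among all genes, for this and the other lists, 10.8% were called, 1224 higher and 586 lower, with a median of 0.01. Aldh1l1 rose by 2.0 ± 0.23 (edgeR adjusted p = 0.000212) and Pou3f2 by 1.30 ± 0.19, Gfap was at least 3.52-fold higher with 13 counts over the p18mKO2+ group, and Hes1 changed by -1.07 ± 0.28. The astrocyte marker Gja1 again went the other way, at -1.37 ± 0.26 (edgeR adjusted p = 0.00459). Among the upstream or opposed regulators 1 rose, Zeb2 by 1.05 ± 0.19, and 5 fell, namely Emx2 (-1.02 ± 0.16), the orphan receptor gene Nr2f1 (-1.52 ± 0.26), Hes5 (-0.93 ± 0.22), Lhx2 (-0.97 ± 0.24) and Neurog1 (-1.58 ± 0.42). The other SOX genes gave 3 that rose, Sox5 (1.40 ± 0.21), Sox11 (0.75 ± 0.14) and Sox4 (0.60 ± 0.13), and 2 that fell, Sox2 (-0.59 ± 0.14) and Sox3 (-1.18 ± 0.28). The further glial factors gave 3 that rose, Etv5 (1.55 ± 0.19), Olig1 (1.88 ± 0.34) and Zbtb18 (0.74 ± 0.21), and Id4, which changed by -1.23 ± 0.14. Counts in both directions moved with the setting. The targets that rose numbered 2 without any single E13.5 p18mKO2- library. The glial factors that rose numbered 1 to 4 over the alternatives, while 1 fell under every setting. Without E13.5 p18mKO2+ replicate 3 the counts that rose and fell were 2 and 0 for the targets, 1 and 3 for the regulators, 3 and 0 for the SOX genes and 4 and 1 for the glial factors. The target that fell was also lost without any single E13.5 p18mKO2- library or E13.5 p18mKO2+ replicate 1. The regulators that fell numbered 2 without E13.5 p18mKO2- replicate 1 or E13.5 p18mKO2+ replicate 1 and 3 without E13.5 p18mKO2- replicate 3, and no SOX gene fell without E13.5 p18mKO2- replicate 2 or E13.5 p18mKO2+ replicate 1. At E16.5 no gene of the 4 lists was called in edgeR, in DESeq2 or under any other alternative run. Of the lists 1 target and 1 SOX gene, Aldh1l1 and Sox2, had an unadjusted p under 0.05, as had 426 of all 16798 genes. The medians were 0.15, -0.01, 0.17 and 0.17 in the same order. Both p18 comparisons and both stage comparisons share libraries in pairs, so their values stand side by side and are not independent.

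The genes whose pattern over the 12 libraries was most like each factor were found by the root mean square difference of centred log2 CPM among 10309 genes with a mean of at least 5 TPM, as a description with no test. For Sox9 they were Vcam1, an adhesion molecule of neural stem cells (0.125), and Zfp516 (0.161), where Sox9 itself varied by 0.603 around its mean. Vcam1 had log2 differences of -1.37 between stages in p18mKO2- and -0.51 with p18 at E13.5. For Nfib they were Ppp2r1b, a scaffold subunit of protein phosphatase 2A (0.133), and Thtpa, thiamine triphosphatase (0.159), against its own variation of 0.429. For Nfix they were Thbs1, the secreted protein thrombospondin 1 (0.229), and Limch1 (0.236), against 0.654, with stage changes of 1.36 and 1.5 in p18mKO2-. For Zbtb20 they were Astn1, the neuronal migration protein astrotactin 1 (0.167), and Ripor1 (0.167), against 0.442. Nfia was nearest to Ier5l (0.137) and Tob1 (0.160) and Nfic to Lrp10 (0.132) and Scap (0.145), with own variations of 0.264 and 0.347. Sox8 had no close partner: Vit (0.249) and Arhgap21 (0.268) were nearest, beside its own variation of 0.368. No 2 of the 7 factors shared a nearest gene.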

How the data were processed

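RNA-seq of 12 libraries was analysed from gene tables deposited by the authors. Per the submitters' processing notes, cutadapt 3.4, STAR 2.7.2b and RSEM 1.2.31 were used with the mouse build GRCm38 (mm10). No source used here gives the strand setting or annotation release, and per the labels' protocols the kit was directional and the RNA polyadenylated. Per the file headers, the authors deposited expected counts, which share multi-mapped reads between genes, TPM, and a mean transcript length per gene.

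Expected counts were rounded to whole numbers, filtered with filterByExpr, TMM-scaled, and modelled in edgeR 4.0.16 (R 4.3.3; quasi-likelihood) over all 12 libraries, with 1 mean per group and 8 residual degrees of freedom. The common biological coefficient of variation was 0.311. The SE is the size of the log2 change over the root of edgeR's F, and log2 CPM used a prior count of 2. The pipeline was tested on simulated data.

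The 7 genes and all lists were chosen with earlier results of these data known. Of 55487 identifiers, 55141 had a symbol. Named genes are the 7 members, the 4 genes of each list with the smallest p in a comparison and the 2 genes nearest to each member. Other called list genes are named where they complete a count, and they, with the list genes named as not called, were chosen after their values were seen. Alternatives were RLE factors, DESeq2 1.42.0, limma-voom (limma 3.58.1), limma on log2(TPM + 1), other filters, a replicate block, only the groups compared, each library left out, both libraries with transcripts of both sexes left out, and covariates for Y-linked or ribosomal RNA. They were extended to the lists after seeing the data. Deviations of same-numbered libraries from their group means correlated at -0.069 to 0.283. Differently numbered libraries were not set beside them, so pairing was not tested. One listed neuronal marker is not reported here and enters no sum or count.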

Additional observations from a re-analysis of the deposited data

Results flagged for a closer look

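The p18 effect differed between stages by edgeR's interaction test in 10 genes of the lists, given as the E16.5 effect minus the E13.5 effect on the log2 scale. The difference was positive for Id4 (1.48 ± 0.20, edgeR adjusted p = 0.00181), Hes5 (1.32 ± 0.32), Emx2 (0.99 ± 0.22) and Sox2 (0.94 ± 0.19). It was negative for Sox5 (-1.73 ± 0.30, edgeR adjusted p = 0.00875), Etv5 (-1.52 ± 0.26), Pou3f2 (-1.45 ± 0.26), Zeb2 (-1.27 ± 0.27), Sox11 (-0.86 ± 0.20) and Sox4 (-0.80 ± 0.19). In each case the effect at E13.5 was called. That at E16.5 was not, but edgeR called no gene there, so this held for every gene. Among all genes tested the interaction called 2.7%. Of 12 tested targets 1 was lower. Of 14 regulators 2 were higher and 1 lower, and of 9 SOX genes 1 was higher and 3 were lower. Of 11 further glial factors 1 was higher and 1 lower. With single libraries left out, 0 to 2 targets were called lower, 0 to 3 regulators higher and 0 to 1 lower, 0 to 2 SOX genes higher and 1 to 3 lower, and 1 further glial factor higher and 1 to 2 lower. Leaving out any 1 of the 12 libraries moved the regulator or the SOX counts by more than 1.5 times.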

How the results depend on the processing

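Of 798 log2 values of the 7 genes under 23 alternatives, 738 kept their direction and side of the threshold, 3 lost a call, 16 gained one and 41 changed sign, none of these called. The number of members called between stages in p18mKO2- was 4 in edgeR and lay between 3 and 4 when single libraries were left out, with Zbtb20 the one lost. With the p18 label at E13.5 it was 0 in edgeR, 1 in DESeq2 (Nfib), 3 with no filter (Nfib, Nfix, Sox9), 1 with the replicate block (Sox9), 2 without the mixed-sex libraries (the 2 with Xist and Y-linked transcripts) (Nfib, Nfix), and 0 to 2 with single libraries left out. For the p18 effect at E16.5 it was 0 under every alternative run. Between stages in p18mKO2+ it was 0, and 1 with no filter (Zbtb20). For the difference between stages it was 0 in edgeR, 1 in DESeq2 (Sox9), 1 with no filter (Sox9), 1 with the replicate block (Sox9), 1 without the mixed-sex libraries (Nfib), and 0 to 1 with single libraries left out. The block changed no other count of members. Over all genes it gave 2369 calls against 1810 for the p18 effect at E13.5, and 0 with and without it at E16.5. Between stages it gave 5526 against 5005 in p18mKO2- and 547 against 275 in p18mKO2+, and 767 against 453 for the difference. The labels do not say what same-numbered libraries share, so its calls are not read further. The cause of these changes was not tested.

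Sign changes were all in uncalled values. For the p18 effect at E13.5, Nfia became 0.10 in limma on TPM, 0.19 without the mixed-sex libraries, 0.16 with the Y-linked covariate and 0.17 with the ribosomal RNA covariate, and Nfic 0.06, 0.07 and 0.16 in limma on TPM, without the mixed-sex libraries and with the ribosomal RNA covariate. For the p18 effect at E16.5, limma on TPM gave Nfia 0.20, Nfib 0.03 and Nfix 0.11, the ribosomal RNA covariate gave 0.40, 0.32 and 0.81, and the Y-linked covariate gave Nfia 0.08. For the stage change in p18mKO2-, Sox8 became -0.01 at a mean CPM of at least 5, -0.02 with the replicate block and -0.08 with the Y-linked covariate, which also gave Nfia 0.0. For the stage change in p18mKO2+, Nfib became -0.18 without the mixed-sex libraries and Nfia 0.03 with the ribosomal RNA covariate. For the difference between stages, Nfia became 0.10 in limma on TPM and 0.23 with the ribosomal RNA covariate, and Zbtb20 0.08 in limma on TPM. With single libraries left out, the p18 effect at E13.5 ran from -0.16 to 0.19 for Nfia and from -0.19 to 0.07 for Nfic, and the p18 effect at E16.5 from -0.36 to 0.11 for Nfix and from -0.15 to 0.45 for Nfic. The stage change in p18mKO2- then ran from -0.22 to 0.09 for Nfia, -0.14 to 0.11 for Sox8 and -0.39 to 0.21 for Nfic, that in p18mKO2+ from -0.09 to 0.32 for Nfib, and the difference from -0.31 to 0.04 for Nfia, -0.41 to 0.03 for Zbtb20 and -0.08 to 0.52 for Nfic. Of 1480 values of the called list genes, 177 lost their call and 0 changed sign.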
